A study of Rorippa islandica and Rorippa pyrenaica with 24 samples.

Results

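The comparison described here sets 3 leaf RNA libraries of Rorippa stylosa taken after 48 h under water against 3 libraries taken after 24 h under water, and asks whether expression went on drifting once the plants were submerged. The rule used only the labels for species, treatment and harvest, so the 6 libraries, of 24 in the whole study, were chosen without reference to any expression value. The other 6 R. stylosa libraries came from plants kept in air and harvested at the same times (3 at 24 h and 3 at 48 h), and R. islandica gave 12 libraries in the same layout. Both are diploid wild relatives of Arabidopsis from the mustard family. R. stylosa is the perennial, self-incompatible and submergence-sensitive species of the pair. Its libraries carry the species label Rorippa pyrenaica and titles with the abbreviation Rstyl, and no mutant or transgene is given for any group. The plants came from the botanical garden in Bern and were multiplied vegetatively, separately for each replicate, so that the replicates may share a genotype. R. islandica is annual, selfing and submergence-tolerant. Plants of both species grew on soil in short days, and submergence took place in transparent boxes filled with tap water. RNA came from young leaves. As leaf tissue was bulked, fewer cells of a type and less RNA per cell cannot be told apart.

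Under water, gases diffuse slowly, so that oxygen and carbon dioxide become limiting and ethylene is trapped in the tissue. Plants can answer by switching on fermentation and other low-oxygen genes, and by cutting back photosynthesis, growth and protein synthesis as carbon runs short. Much of this reprogramming is known to begin within hours, and the contrast of the second day with the first asks what was still changing after that. In these plants, submerged in a day-night rhythm, the paper found only some core low-oxygen genes induced. Most photosynthesis genes did not change there or, in R. islandica, were lower. On the contrast taken up here, the paper's principal component plot showed no separation of R. stylosa by harvest, with some variation among replicates. Submerged R. islandica did part by harvest, along the second component. Such a plot and the tests of single genes below are unlike measures.

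Gene identifiers are those of the R. islandica transcriptome, to which the reads of both species had been assigned. The files do not pair these identifiers with gene names, so that 2 genes that rose and 2 that fell are named by identifier, and the rest are described as groups. For the same reason no leaf marker could be checked against the labelled tissue, and no pathway list could be counted.

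The 6 submerged libraries held 24127576 to 35953621 estimated counts, with a mean of 28534100 ± 6463180 (SD, n = 3) at 24 h and of 27451400 ± 2817890 (SD, n = 3) at 48 h (two-sided exact permutation test, p = 0.9). With 3 libraries against 3, the smallest p that this test allows is 0.1. The number of genes above 1 CPM (counts scaled to a common library size) was 17097, 17264 and 17152 at 24 h and 16871, 17081 and 17029 at 48 h, so the later harvest lay below the earlier one in every library (exact permutation p = 0.1). The 100 most abundant genes took 25.3 ± 1.33% of the counts at 24 h and 25.03 ± 1.40% at 48 h (SD, n = 3 each, exact permutation p = 1). The root mean square log2 difference between libraries was 0.426 to 0.504 within the 24 h harvest, 0.434 to 0.520 within the 48 h harvest, and 0.507 to 0.628 for the 9 pairs across harvests. These ranges overlapped. Measured against sampling noise (chi-square per degree of freedom), replicate 2 of 48 h was nearer to replicate 3 of 24 h (27.2) than to replicates 1 and 3 of its own harvest (36.1 and 33.1). By the root mean square difference it was nearest to replicate 3 of its own harvest (0.481). No pair of libraries agreed within sampling noise.

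Between the first and the second day under water, 201 of 19886 tested genes changed in R. stylosa, which is 1.01% of them (edgeR quasi-likelihood test against no change, Benjamini-Hochberg adjusted p below 0.05). More genes fell than rose. Of the 201, 142 genes (0.714% of those tested) were lower and 59 (0.297%) were higher at 48 h. The fallers changed further, with a median log2 fold change of -1.01 and 20 genes falling by more than 2 on the log2 scale, whereas the risers had a median of 0.73 and 2 genes past 2. At an unadjusted p below 0.05 the test passed 3926 genes (19.7%). The 3 libraries of one harvest lay wholly above those of the other for 5231 genes (26.3%), of which 2461 (12.4%) were higher and 2770 (13.9%) lower at 48 h. For libraries in random order the probability of this is 0.1 per gene.

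How many genes passed depended on single libraries. Without replicate 1 of the 48 h water harvest 8 genes were called, 7 of them lower. The count was 34 without replicate 3 and 44 without replicate 1 of the 24 h water harvest, and 39 without replicate 3 of the 48 h water harvest. It rose to 366 without replicate 2 of the 48 h water harvest. Libraries from air entered this fit through the shared estimate of spread, and also through the filter on low counts and the scaling. The count was 468 without replicate 2 of the 24 h air harvest and 115 without replicate 2 of the 48 h air harvest. The size of the changes moved much less than the number of calls. Over these 12 fits the median log2 fold change of the 142 fallers ran from -1.04 to -0.93 and that of the 59 risers from 0.68 to 0.81, and all 201 genes kept their sign, although they had been picked for that change in the full set of libraries. DESeq2 called 1260 genes on the same 12 libraries (445 higher and 815 lower), 200 of the 201 among them. With the replicate number as a block, since each R. stylosa replicate had been propagated separately, edgeR called 370 genes (121 higher and 249 lower), 195 of the 201 among them. With edgeR on the 6 submerged libraries alone, 128 genes were called, 59 higher and 69 lower, and 83 of the 201 were among them. No gene passed edgeR's test of a log2 change beyond 1 (186 at an unadjusted p below 0.05).

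**Figure D1:**
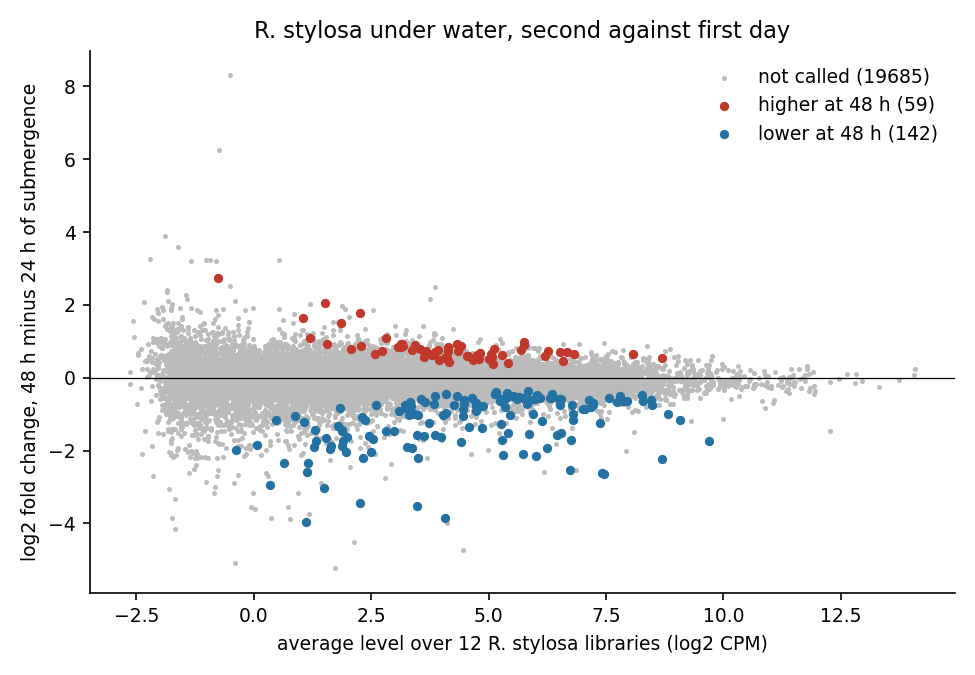
Each point is 1 of the 19886 tested genes, with its average level over the 12 R. stylosa libraries (log2 CPM) on the horizontal axis and its log2 fold change, 48 h minus 24 h under water, on the vertical axis. The 142 called fallers (blue) reach beyond -3 at moderate levels, while most of the 59 called risers (red) lie below 1.

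Most genes moved little. The 95% interval of the fold change from limma-voom lay within -1 and 1 on the log2 scale for 15143 genes (76.1%), and within -0.5 and 0.5 for 42.3%. Among the 11831 genes above 3 on the log2 CPM scale those shares were 92.5% and 61.7%. The called share rose with the level of the genes. Below 0 on the log2 CPM scale 2 of 2436 genes were called (0.0821%), with a median standard error of 0.469 on the log2 scale. Between 0 and 3 it was 45 of 5619 genes (0.801%, median standard error 0.234), between 3 and 6 it was 105 of 8996 genes (1.17%, 0.121), and above 6 it was 49 of 2835 genes (1.73%, 0.123). Genes with no count in 1 harvest did not add to the list. In all, 75 genes had no count in any 24 h water library and more than 3 counts in total at 48 h, and 100 genes had the reverse, but these totals exceeded 30 counts for 1 and 3 genes respectively and none of the 201 called genes was at 0 throughout a harvest.

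The genes that fell had mostly been more abundant in air. Their median level was 35.5 CPM in air at 24 h, 36.5 in air at 48 h, 16.5 under water at 24 h and 7.89 under water at 48 h. Together these 142 genes took 0.714, 0.674 and 0.669% of all counts in the 3 libraries of 24 h under water and 0.384, 0.410 and 0.408% in those of 48 h, while the 6 air libraries ranged from 1.21 to 1.43%. Set against air of the same harvest, their median log2 difference was -0.80 at 24 h (quartiles -1.73 and -0.31) and -2.002 at 48 h (quartiles -3.38 and -1.09). Those contrasts share the submerged libraries with the one that chose the genes, so the values stand side by side as a description. In air alone, which did not enter the contrast, the fallers had a median log2 change of 0.08 from 24 h to 48 h.

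The genes that rose showed the opposite order, with a smaller span. Their median level was 11.8 CPM in air at 24 h, 11.2 in air at 48 h, 17.6 under water at 24 h and 26.5 under water at 48 h. They took 0.240, 0.260 and 0.246% of all counts at 24 h under water and 0.414, 0.371 and 0.408% at 48 h, against 0.112 to 0.141% in the air libraries. Their median log2 difference from air was 0.92 at 24 h (quartiles 0.43 and 1.59) and 1.66 at 48 h (quartiles 1.04 and 2.46), again with shared libraries. Their median change within air was -0.07.

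Among the fallers, the 20 genes with a log2 change below -2 had a median of 3.44 CPM at 24 h and 0.786 CPM at 48 h under water, from 13.04 CPM in air at 24 h. For 6 of these 20 some transcript counts were not whole numbers, which arises where reads were divided between similar transcripts. A division among isoforms of the same gene leaves its sum unchanged, whereas a division between genes makes their values uncertain. These cases were not told apart. The 2 risers past a log2 change of 2 were rare transcripts, at 0.263 and 2.04 CPM at 24 h and at 1.71 and 8.45 CPM at 48 h. Fractional counts occurred in 34 of the 201 called genes (16.9%) and in 4170 of all 19886 tested genes (21.0%). The coding sequences of the fallers had a median length of 966 bases and those of the risers 1362 bases, beside 1128 bases over all tested genes. Orthogroups marked in the files as universal held 99.3% of the fallers and 98.3% of the risers, beside 92.6% of tested genes. As the called share rose with level, these groups are not matched in level, and its part in the lengths and shares was not tested. The fallers belonged to 140 orthogroups, 2 of which held 2 fallers each.

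A core of 7 genes, all of them fallers, passed the test in each of the 12 fits that left out 1 library. Their log2 falls ranged from 0.740 to 2.62 in size with a median of 1.75, and their median level was 128 CPM in air at 24 h, 24.4 CPM under water at 24 h and 4.01 CPM under water at 48 h. The 2 named fallers belong to this core. Genes were named for harvests that did not overlap and for passing most of the 6 fits without 1 submerged library. For the named genes neither trait is therefore a result. No riser passed all of the 6 fits that left out a submerged library, and 1 riser passed 5 of them.

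Roisl.0017s0477, the only gene of its orthogroup, lost most of its remaining transcript during the second day. It measured 24.7, 17.9 and 30.6 CPM in the libraries of 24 h under water and 4.39, 2.39 and 4.99 CPM in those of 48 h. The harvests did not overlap, as the choice of named genes required, and the lowest 24 h library was well above the highest 48 h library. Means were 24.4 ± 6.35 and 3.92 ± 1.36 CPM (SD, n = 3 each), a log2 fold change of -2.62 (SE 0.258, edgeR adjusted p = 0.00253) or a 6.14-fold drop. In air the gene was abundant at both harvests, at 299.9 ± 31.4 and 350.8 ± 56.3 CPM (SD, n = 3 each). Leaving out each submerged library in turn gave log2 changes from -2.83 to -2.37, all called.

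Roisl.0075s0088 followed the same course. It measured 61.6, 53.8 and 105 CPM at 24 h and 14.8, 14.4 and 17.7 CPM at 48 h under water. All 3 later libraries lay close together, and all were far below the earlier ones. Its mean went from 73.6 ± 27.8 to 15.7 ± 1.80 CPM (SD, n = 3 each), a log2 fold change of -2.23 (SE 0.224, edgeR adjusted p = 0.00253) or a 4.69-fold drop, from 730.5 ± 39.0 CPM in air at 24 h and 823.7 ± 119 CPM in air at 48 h. Its counts were fractional in all 12 R. stylosa libraries, so that reads had been divided with a similar transcript. The other gene of its orthogroup has the same coding length of 1506 bases and fell as well, with a log2 fold change of -2.12 (edgeR adjusted p = 0.0177). That partner had 894 counts in the 3 libraries of 24 h and 209 in those of 48 h, against 6582 and 1435 for Roisl.0075s0088, and how much each copy contributed is uncertain.

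Among the risers, Roisl.0028s0436 went from 19.7, 22.6 and 21.6 CPM at 24 h to 38.4, 32.4 and 35.6 CPM at 48 h under water. Every later library was above every earlier one, as the choice of named genes required. All 6 lay above the air means of 12.8 ± 0.552 and 11.2 ± 0.946 CPM (SD, n = 3 each). The mean rose from 21.3 ± 1.47 to 35.5 ± 3.00 CPM (SD, n = 3 each), a log2 fold change of 0.74 (SE 0.097, edgeR adjusted p = 0.0116) or 1.67-fold. Without replicate 1 of the 48 h water harvest the change was 0.68 and no longer passed (edgeR adjusted p = 0.0625).

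Roisl.0018s0421 rose by a similar factor. It measured 9.15, 9.62 and 11.2 CPM at 24 h and 20.1, 17.8 and 17.5 CPM at 48 h under water, without overlap, as the choice required. Means were 10.001 ± 1.095 and 18.5 ± 1.44 CPM (SD, n = 3 each), a log2 fold change of 0.89 (SE 0.131, edgeR adjusted p = 0.0169) or 1.85-fold, beside 7.08 ± 1.23 and 7.67 ± 0.543 CPM in air (SD, n = 3 each). The call was lost without replicate 1 of the 24 h water harvest (0.83, edgeR adjusted p = 0.0674) and without replicate 1 of the 48 h water harvest (0.82, edgeR adjusted p = 0.0756).

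**Figure D2:**
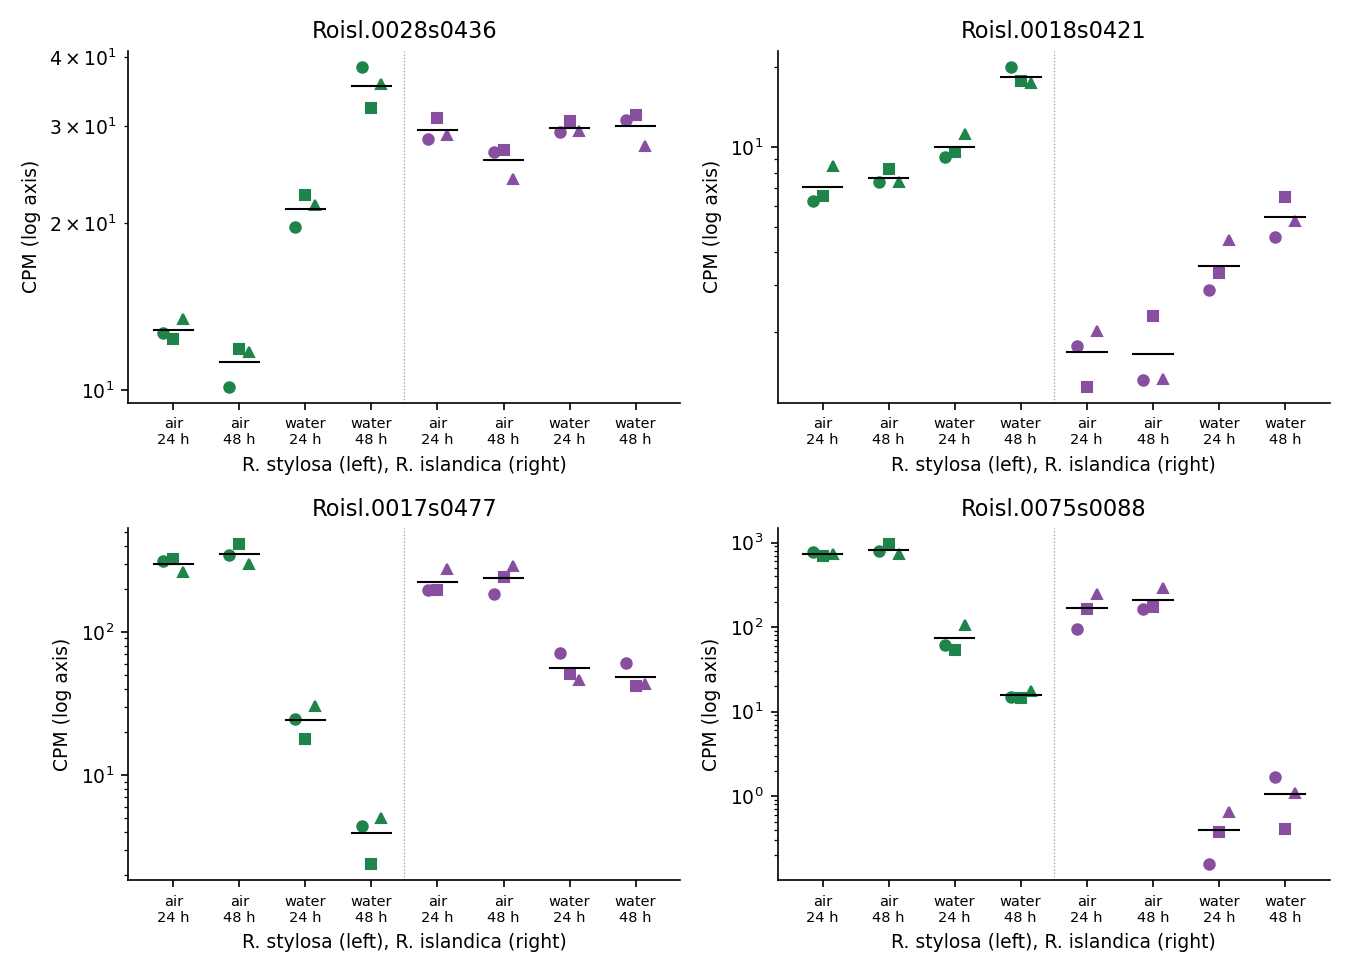
Level of the 4 named genes in all 24 libraries (CPM, log axis), R. stylosa in green on the left and R. islandica in purple on the right of each panel, with circles, squares and triangles for replicates 1, 2 and 3 and a bar for the mean of each group. In R. stylosa both upper genes are highest at 48 h under water, and both lower genes drop from 299.9 and 730.5 CPM in air at 24 h to 24.4 and 73.6 CPM at 24 h and to 3.92 and 15.7 CPM at 48 h under water.

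Plants in air gave the background for 24 h of passing time. No gene differed between the 48 h and 24 h air harvests in edgeR (0% of 19886), with 271 genes (1.36%) at an unadjusted p below 0.05 and 1 gene called by DESeq2. The libraries of the air harvests lay wholly apart for 858 genes (4.31%), compared with 26.3% under water. For libraries in random order the probability of such a separation is 0.1 per gene. The air share of 4.31% thus lay below this rate of 0.1. The share of 1.36% lay below 0.05, the nominal rate of the edgeR test where nothing changes. Why both shares were low was not tested. Over the 11831 genes above 3 on the log2 CPM scale, the SD of the log2 fold change between harvests was 0.150 in air and 0.309 under water.

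Whether a change under water differed from that in air was tested as an interaction of time and treatment. It passed for 6 genes (0.0302%, edgeR adjusted p from 0.00615 to 0.0449), with 2683 genes (13.5%) at an unadjusted p below 0.05 and 376 genes called by DESeq2. All 6 fell under water, by log2 changes of -2.62 to -0.74, while their changes in air were between 0.08 and 0.33. For Roisl.0017s0477 the log2 difference between water and air was -2.84 (edgeR adjusted p = 0.0257) and for Roisl.0075s0088 it was -2.40 (edgeR adjusted p = 0.0291). Both named risers missed the threshold, at 0.93 for Roisl.0028s0436 (edgeR adjusted p = 0.0510) and 0.77 for Roisl.0018s0421 (edgeR adjusted p = 0.175). The count of 6 was 191 without replicate 2 of the 24 h air harvest and 22 without replicate 2 of the 48 h water harvest, 6 (1 higher and 5 lower) without replicate 3 of the 24 h water harvest, and between 1 and 3 without any other single library. With the replicate number as a block it was 11, all below 0. For the other called genes a change particular to water was therefore not shown by this test.

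R. islandica, the tolerant species, provided independent libraries for the same step. There, 3063 of 20609 tested genes changed between 24 h and 48 h under water (14.9%), 1357 upward (6.58%) and 1706 downward (8.28%), and 30.2% had an unadjusted p below 0.05. Both species thus had more fallers than risers. Of the 139 R. stylosa fallers that could be tested in R. islandica, 54 fell there too (38.8%), against 8.68% of all genes tested in both species, and 3 rose. Of the 58 testable R. stylosa risers, 16 also rose (27.6%, against 7.04% of all genes tested in both) and 1 fell. The median R. islandica log2 change was -0.44 for the fallers (quartiles -0.92 and -0.14) and 0.34 for the risers (quartiles 0.07 and 0.50), and 113 of 139 fallers and 49 of 58 risers had the same sign in both species.

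**Figure D3:**
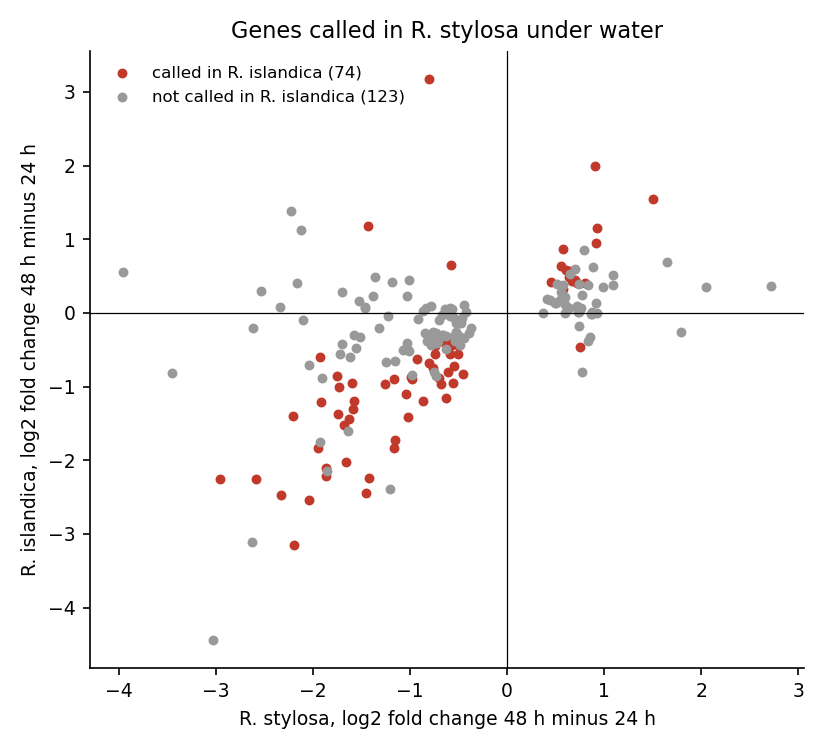
Log2 fold change from 24 h to 48 h under water in R. stylosa (horizontal) and in R. islandica (vertical) for the 197 called R. stylosa genes that were tested in both species, with the 74 genes called in R. islandica in red. The lower left quadrant holds 113 of the 139 fallers, and the upper right quadrant 49 of the 58 risers.

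The shared direction reached beyond the called genes. When the 18385 genes tested in both species were ranked by their p in R. stylosa, 71 of the first 200 were called in the same direction in R. islandica (35.5%) and 4 in the opposite one. Among ranks 201 to 1000 the numbers were 188 (23.5%) and 8, and among ranks 1001 to 2000 they were 190 (19.0%) and 19. In the last group, from rank 8001 on, 8.41% of genes were called in the same and 5.37% in the opposite direction. The share of genes with the same sign went from 82.5% in the first 200 to 55.5% in the last group. Level changed along this ranking as well, from a median of 4.54 to 3.64 on the log2 CPM scale, and its part in the shares was not tested. When the genes were ranked instead by their p in air, 52.5% of the first 200 genes and 52.9% of the last group had the same sign of the air change in both species, with shares up to 62.6% between them. Level ran the other way along the air ranking, from a median of 2.77 to 4.00 log2 CPM. The edgeR p of its first 200 genes reached 0.0457, against 0.000520 under water, so the 2 rankings are not matched. The 1060 genes that DESeq2 called in R. stylosa beyond the 201 (a group formed after the counts were seen) included 1031 tested in R. islandica, of which 257 were called in the same direction there (24.9%) and 9 in the opposite one.

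**Figure D4:**
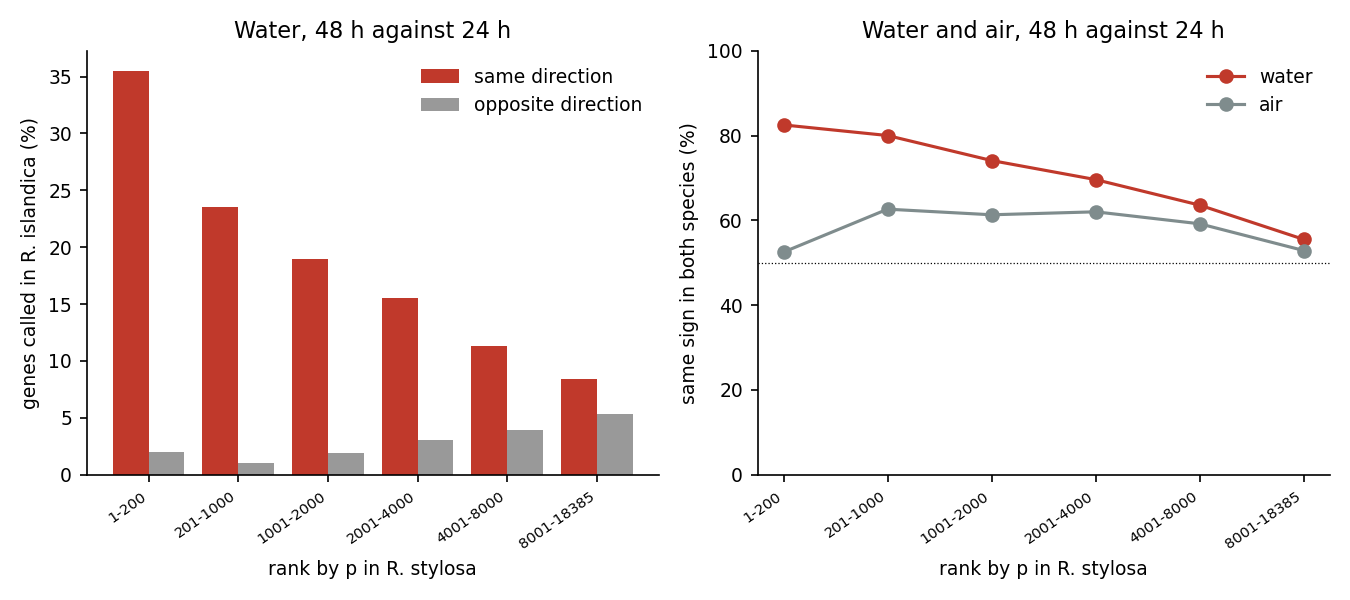
Genes tested in both species, in groups by their rank of p in R. stylosa (horizontal), ranked by the change under water or, for the air line, by the change in air. The left panel gives the share called in R. islandica under water in the same (red) or the opposite (grey) direction, which is 35.5% and 2% in the first group and 8.41% and 5.37% in the last, and the right panel gives the share of genes with the same sign in both species under water (red) and in air (grey), with a dotted line at 50%.

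Species differences in the second-day change were tested directly over all 24 libraries. The change under water differed between R. stylosa and R. islandica for 365 of 22226 genes (1.64%), above 0 (R. stylosa minus R. islandica) for 197 genes (0.886%) and below 0 for 168 genes (0.756%), with a median size of 0.98 on the log2 scale. Of these 365 genes, 31 belonged to the 201 called in R. stylosa and 261 were called in R. islandica, comparisons that share libraries with this test, and 77 were called in neither. By direction, 23 of the 139 testable fallers and 8 of the 58 testable risers were among them. The count of 365 was 110 without replicate 1 and 225 without replicate 3 of the R. stylosa 24 h water harvest, and 242 without replicate 1 of the 48 h water harvest. Without replicates 1, 2 and 3 of the R. islandica 24 h water harvest it was 806, 86 and 127, and without those of the 48 h water harvest it was 150, 204 and 156. The balance of directions turned with single libraries too. It was 51 above and 59 below 0 without replicate 1, and 105 and 120 without replicate 3, of the R. stylosa 24 h water harvest, and 120 and 152 without replicate 2 of the 48 h water harvest. In R. islandica it was 372 and 434 without replicate 1 of the 24 h water harvest, and 95 and 109 without replicate 2 of the 48 h water harvest. DESeq2 called 1009 genes, and a replicate block gave 655.

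Of the 4 named genes, 3 differed between the species in this test. Roisl.0017s0477 measured 56.1 ± 13.5 CPM after 24 h and 48.7 ± 10.7 CPM after 48 h under water in R. islandica (SD, n = 3 each), a log2 change of -0.21 that did not pass (SE 0.219, edgeR adjusted p = 0.569), with a log2 difference between species of -2.40 (edgeR adjusted p = 0.00421). Roisl.0075s0088 was already low in R. islandica after 24 h, at 0.395 ± 0.245 CPM, and measured 1.06 ± 0.642 CPM after 48 h (SD, n = 3 each), from 167 ± 75.2 CPM in air at 24 h. That R. islandica change, 1.38 on the log2 scale, did not pass and rested on few counts (SE 0.713, edgeR adjusted p = 0.214). Its log2 difference between species, of which the uncalled R. islandica change is a part, was -3.61 (edgeR adjusted p = 0.0145). Roisl.0028s0436 measured 29.7 ± 0.783 and 29.9 ± 2.02 CPM in submerged R. islandica (SD, n = 3 each), with air means of 29.5 and 26.0 CPM, and the species differed by 0.74 (edgeR adjusted p = 0.00581). Roisl.0018s0421 measured 3.56 ± 0.801 and 5.45 ± 0.973 CPM in submerged R. islandica (SD, n = 3 each), a log2 change of 0.62 (SE 0.247, edgeR adjusted p = 0.113), and its species difference of 0.27 did not pass (edgeR adjusted p = 0.722). As the reads of both species were assigned to R. islandica sequences, only changes within a species are compared, not levels between them.

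Submergence genes defined in R. islandica alone were then followed in R. stylosa. Genes that were lower under water than in air in R. islandica at 24 h, by more than 1 on the log2 scale, were lower again in R. stylosa on the second day, in the median and in every pairing of libraries. Of the 1976 such genes tested, 63 were called lower (3.19%, against 0.714% of all genes) and 2 higher, the median log2 change was -0.29, and 22.6% of them lay above 0, compared with a median of -0.01 and 49.0% for all tested genes. The mean level of this list was 2.58, 2.50 and 2.56 log2 CPM in the 3 libraries of 24 h under water and 2.12, 2.26 and 2.23 in those of 48 h. The harvests did not overlap, and the air libraries lay between 3.61 and 3.85. All 9 pairings of a 48 h with a 24 h library gave a median below 0, from -0.40 to -0.16. In air the median change of the same genes was 0.02. The list of genes lower at 48 h of submergence in R. islandica gave 93 of 2509 genes called lower (3.71%) and none higher, with a median of -0.33 and 18.0% above 0. The medians were smaller in size, at -0.15 for the 24 h list and -0.18 for the 48 h list, when the lists took in all genes called against no change in R. islandica.

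Genes higher under water in R. islandica had a median slightly above 0 on the second day in R. stylosa. Of 2089 genes on the 24 h list, 21 were called higher (1.01%, against 0.297% of all genes) and 3 lower, the median log2 change was 0.15, and 68.1% lay above 0. The mean level was 3.59, 3.98 and 3.77 log2 CPM at 24 h under water and 3.80, 4.06 and 3.97 at 48 h, against 2.05 to 2.25 in air. Here the harvests overlapped, since replicate 2 of the 24 h water harvest stood above 2 of the 3 later libraries, and 8 of the 9 pairings of libraries had a median above 0 (range -0.10 to 0.38). For the 48 h list, 26 of 2279 genes were called higher (1.14%) and 3 lower, the median was 0.19, and 72.7% lay above 0. The air medians of these lists were -0.03 and -0.04. Single libraries moved the medians under water, to 0.08 (24 h list) and 0.11 (48 h list) without replicate 1 of the 24 h water harvest, and to 0.23 (24 h list) without its replicate 2. For lists called against no change in R. islandica the medians were 0.09 and 0.11.

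Genes that changed on the second day in R. islandica itself had medians of the same sign in R. stylosa. The called genes among them are the shared calls already counted above, seen from the R. islandica side. Of 1595 genes that fell there, 54 were called lower in R. stylosa (3.39%) and 1 higher, with a median of -0.21 and 21.9% above 0. The mean level of these genes was 4.57, 4.55 and 4.63 log2 CPM at 24 h and 4.21, 4.49 and 4.29 at 48 h under water. The harvests did not overlap, but replicate 2 of the 48 h harvest stood nearest to the earlier ones and within the range of the air libraries (4.41 to 4.57). Of 1294 genes that rose there, 16 were called higher (1.24%) and 3 lower, with a median of 0.09 and 64.8% above 0, and their mean level was 3.74, 3.86 and 3.76 log2 CPM at 24 h and 3.87, 3.90 and 3.91 at 48 h. These later values exceeded the earlier ones in every pairing, although the air libraries spanned 3.76 to 3.90.

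**Figure D5:**
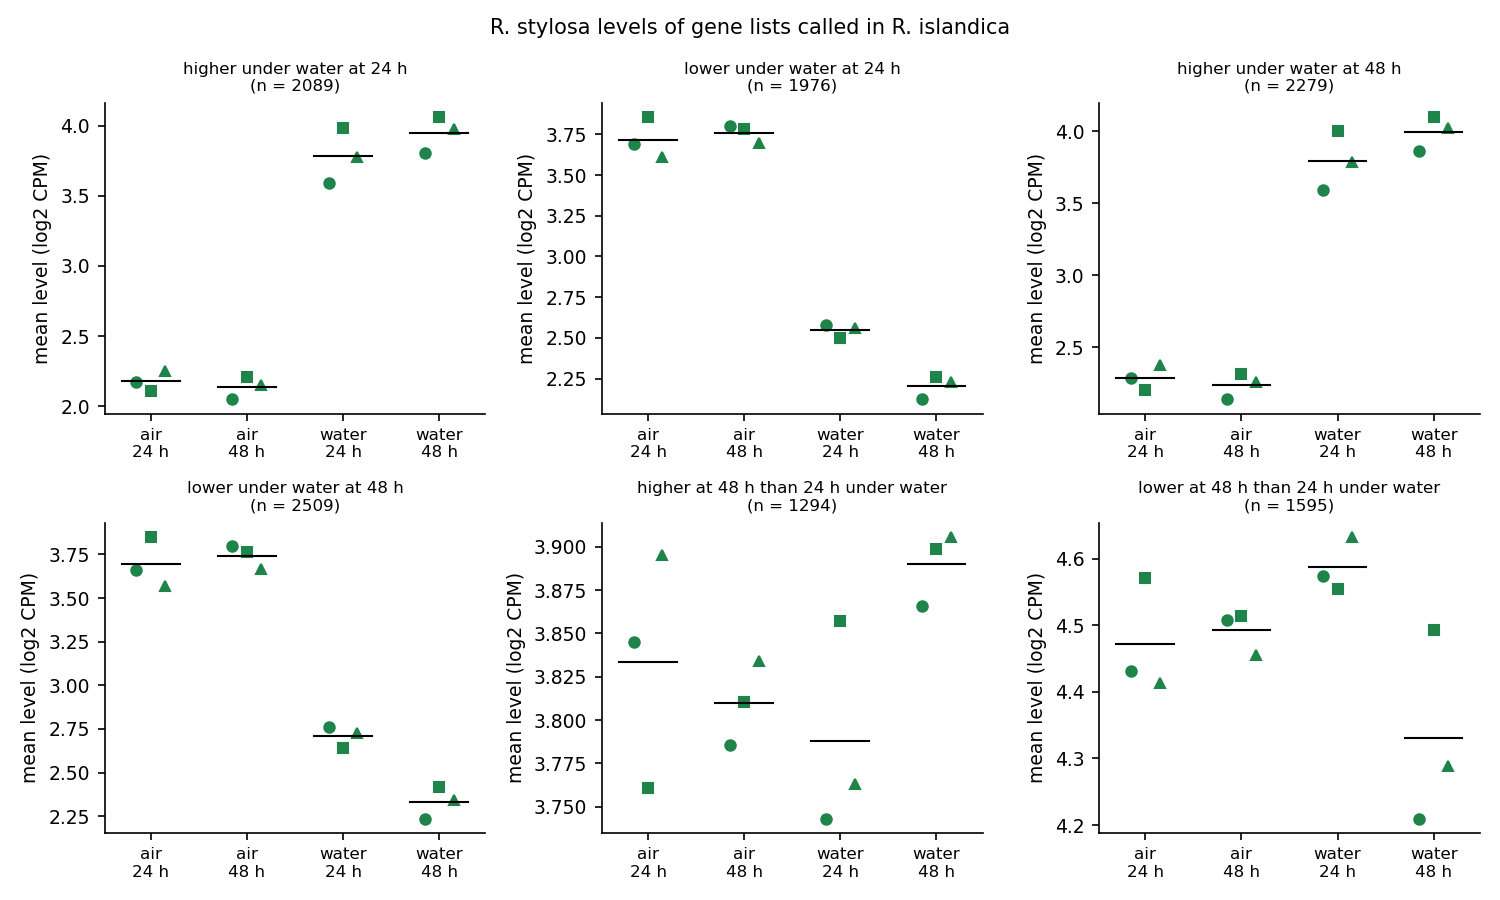
Mean level (log2 CPM) in each R. stylosa library of 6 gene lists called in R. islandica, with circles, squares and triangles for replicates 1, 2 and 3 and a bar for the mean of each group. The axes start above 0 and differ between panels. Both lists lower under water step down again from 24 h to 48 h (2.50 to 2.58 against 2.12 to 2.26 for the 24 h list), whereas for both lists higher under water the harvests overlap.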

How the data were processed

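Young-leaf polyA RNA was sequenced as paired reads. The authors checked reads with FastQC 0.12.0 and quantified them with kallisto on the R. islandica transcriptome for both species. The deposited values are estimated counts per transcript (expected counts), not normalized, and 11.8% of the R. stylosa values are not whole. Coding lengths come from the same tables. Counts were summed over isoforms (30646 genes) and rounded. Genes passing filterByExpr over all 12 R. stylosa libraries (4 groups) were tested with TMM normalization and the quasi-likelihood test of edgeR 4.0.16 in R 4.3.3. DESeq2 1.42.0 and limma 3.58.1 were alternatives, as were other size factors, no filter, a replicate block, fewer libraries and tests by transcript. CPM were scaled by TMM. Lists came from R. islandica libraries alone, by a test beyond a log2 change of 1 for water against air and against no change for 48 h against 24 h. Named genes were called, had non-overlapping harvests and at least 5 CPM in the higher one, and passed most of the 6 fits without 1 submerged library (ties by fold change). The test was also run on simulated data, with an outcome that is not reported here. In air, deviations of same-numbered libraries from their group means correlated at 0.273, 0.125 and 0.457. Differently numbered air pairs ranged from -0.377 to 0.127, so pairing was not clear for replicate 2. The replicate block left the count of air calls at 0. Members and lists were chosen with earlier results of these data known.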

Additional observations from a re-analysis of the deposited data

Results flagged for a closer look

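Differences between groups were tested in 2 ways. The change from 24 h to 48 h in R. stylosa differed between water and air for 6 genes, and the change under water differed between R. stylosa and R. islandica for 365 genes. Among the named genes, Roisl.0017s0477 differed by -2.84 on the log2 scale between water and air and by -2.40 between the species, Roisl.0075s0088 by -2.40 and by -3.61, and Roisl.0028s0436 by 0.74 between the species.

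With 3 libraries in each group, no test for a single deviating sample was made.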

How the results depend on the processing

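Beside the 201 genes called between 48 h and 24 h under water, fits without 1 library called 8 to 468 genes. Among these were 8 to 201 of the 201. The count was 1260 with DESeq2 on 12 libraries, 1189 with DESeq2 on the 6 submerged libraries, 128 with edgeR on those 6 alone, and 0 with a log2 threshold of 1. Other size factors, no filter, limma-voom and tests by transcript stayed within 1.5 times the count. Same-numbered water libraries deviated with correlations of 0.322, 0.0876 and 0.00210, not all above 0.1, and differently numbered ones with -0.217 to 0.156. With the replicate block 370 genes were called under water, 11 for time by treatment and 655 between species. In air DESeq2 called 1 gene and omissions gave 0 to 1. Time by treatment gave 376 genes with DESeq2 and 1 to 191 over omissions, and the species test gave 1009 and 86 to 806. For lists called against no change in R. islandica, the median was -0.15 for genes lower under water at 24 h and -0.18 at 48 h. For genes higher under water it was 0.09 and 0.11. No alternative changed the sign of a named gene's change or of a list median, but the balance of directions in the species test turned without some libraries. At 3 libraries a group, calls depended on the estimated spread, and changes of genes below 1 CPM were rarely detectable.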
